A study of Mus musculus with 20 samples.

Results

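The genes described here are transcriptional targets of the tumour suppressor p53 and receptors of the tumour necrosis factor (TNF) receptor family that can signal cell death: Cdkn1a, Ccng1, Btg2, Mdm2, Trp53inp1, Bax, Bbc3, Fas, Tnfrsf10b and Tnfrsf12a. The 10 genes were chosen by name, with earlier results of these data known, and each was read from its brightest probe set over all arrays. A probe set named for 1 gene was found for 9 of the 10, among 18193 genes read in all; Bax was not analysed here, nor was Trp53, the gene of p53 itself. All 9 were above the floor of 16 intensity units on all 20 arrays.

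Total RNA of mouse liver was measured on Affymetrix Mouse 430 2.0 arrays, with 1 liver on each of 20 arrays. The 4 groups of 5 livers were wild-type (Scd1+/+) mice on chow, wild-type mice on a very-low-fat (VLF), high-carbohydrate diet (TD03045 from Harlan Teklad), Scd1-/- knockout mice on chow and knockout mice on the VLF diet. Scd1 encodes stearoyl-CoA desaturase, which makes monounsaturated fatty acids, and the series looked for expression changes particular to knockout mice on the VLF diet. The labels do not give age, sex, strain background or time on the diet. Livers were individual and not pooled, and whole liver holds hepatocytes together with immune, stromal and vascular cells. In such bulk samples, fewer cells of a type and less RNA per cell cannot be told apart.

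p53 is held at a low level by Mdm2, a ubiquitin ligase that is itself a p53 target, so that the pair forms a negative feedback loop. When the loop is released by DNA damage or other stress, p53 switches on genes that halt the cell cycle (Cdkn1a, Btg2, Ccng1), genes that feed back on p53 (Mdm2, Trp53inp1) and genes that open the mitochondrial route to apoptosis (Bax, Bbc3). Fas and Tnfrsf10b are receptors with a cytoplasmic death domain, for Fas ligand and TRAIL. Tnfrsf12a (Fn14), the receptor for TWEAK, lacks a death domain, signals through TRAF adaptors and is known as an inducible receptor in injured and regenerating liver. Several of these genes, Cdkn1a and Btg2 among them, also respond to signals other than p53.

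Promoter sequence was available for 7 of the 9 genes read (RefSeq, GRCm38.p6), and the 250 bases before an annotated start are printed for 6 of them: the 5 with a searched motif, and Tnfrsf12a, which held none of them. Capitals mark a match to the p53 response element half-site in Cdkn1a, Ccng1 and Mdm2, the cAMP response element (CRE) in Btg2 and AP-1 in Fas.
Cdkn1a, chr17:29090729-29090978, plus strand: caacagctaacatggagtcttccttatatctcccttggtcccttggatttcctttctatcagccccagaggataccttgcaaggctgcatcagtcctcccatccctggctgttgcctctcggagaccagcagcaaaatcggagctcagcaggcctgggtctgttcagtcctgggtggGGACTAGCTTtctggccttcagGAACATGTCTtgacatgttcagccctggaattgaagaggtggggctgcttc
Ccng1, chr11:40755287-40755536, minus strand: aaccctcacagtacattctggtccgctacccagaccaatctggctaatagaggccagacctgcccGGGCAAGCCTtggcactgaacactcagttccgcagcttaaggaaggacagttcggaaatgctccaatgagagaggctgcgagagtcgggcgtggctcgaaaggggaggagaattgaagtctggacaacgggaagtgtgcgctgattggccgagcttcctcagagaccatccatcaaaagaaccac
Mdm2, chr10:117710759-117711008, minus strand: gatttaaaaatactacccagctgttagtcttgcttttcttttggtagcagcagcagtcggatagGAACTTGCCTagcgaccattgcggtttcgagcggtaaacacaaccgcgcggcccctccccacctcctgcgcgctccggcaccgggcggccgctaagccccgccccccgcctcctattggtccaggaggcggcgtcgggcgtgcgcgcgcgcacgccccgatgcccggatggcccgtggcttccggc
Btg2, chr1:134079156-134079405, minus strand: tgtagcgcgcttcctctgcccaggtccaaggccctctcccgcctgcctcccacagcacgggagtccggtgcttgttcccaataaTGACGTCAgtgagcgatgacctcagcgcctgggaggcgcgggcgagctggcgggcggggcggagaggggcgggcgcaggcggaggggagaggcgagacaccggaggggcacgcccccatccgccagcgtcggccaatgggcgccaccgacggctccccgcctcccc
Fas, chr19:34290409-34290658, plus strand: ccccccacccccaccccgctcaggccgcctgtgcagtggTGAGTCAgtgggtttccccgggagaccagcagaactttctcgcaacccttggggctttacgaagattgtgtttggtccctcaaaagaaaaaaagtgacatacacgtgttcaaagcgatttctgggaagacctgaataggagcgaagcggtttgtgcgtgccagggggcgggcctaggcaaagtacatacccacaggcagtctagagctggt
Tnfrsf12a, chr17:23677450-23677699, minus strand: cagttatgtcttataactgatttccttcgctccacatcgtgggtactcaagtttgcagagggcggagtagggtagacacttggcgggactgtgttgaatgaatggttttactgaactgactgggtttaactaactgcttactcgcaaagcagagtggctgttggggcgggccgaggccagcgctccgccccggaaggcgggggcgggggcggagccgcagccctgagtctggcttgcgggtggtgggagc
The p53 half-site occurs on both strands at each match, since it reads alike on both. In Cdkn1a its 2 matches began 73 and 51 bases before the upstream annotated start, whereas the 250 bases before the other annotated Cdkn1a start held none. The match began 185 bases before the start in Ccng1 and 186 bases before it in Mdm2. Of 32851 promoter windows of the same length, 7.13% held a half-site. The CRE, TGACGTCA, began 166 bases before the Btg2 start and was present in 1.55% of windows. The AP-1 motif TGANTCA, present in 6.75% of windows, began 211 bases before the Fas start and matched in no other of the 7 genes, and the antioxidant response element TGACNNNGC, present in 10.2%, matched in none of them. These matches describe letters in a window and no binding was measured.

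Scd1 itself matched the genotype labels, at 27.1 to 57.9 in the 10 knockout livers and 6496 to 20350 in the 10 wild-type livers (normalized intensity). Array medians of the deposited values lay between 32.2 and 36.6. Knockout chow array 3 stood apart from its group: over 775 genes called at least 2-fold up in knockout livers on the VLF diet, its median lay 0.31 on the log2 scale above the mean of the other 4 arrays, against -0.12 to -0.01 for those 4 set against the rest in the same way. Wild-type VLF array 3 stood apart in Xist, which was at the floor there and at 1229 to 1937 on the other 19 arrays, while Eif2s3y and Uty were at the floor on all arrays. The ratio of 3' to 5' actin probe sets, a measure of RNA integrity in which higher is worse, averaged 1.82 in knockout and 2.19 in wild-type livers on the VLF diet (exact permutation test, two-sided p = 0.0159, 5 livers a group). On chow it averaged 2.25 and 2.70 (exact p = 0.00794, the smallest that 5 against 5 allows), and both diet comparisons also gave 0.00794; adjusted over these 4 comparisons the values are 0.0159 and 0.0106. The same ratio for Gapdh averaged 1.29 in knockout and 1.32 in wild-type livers on the VLF diet (exact permutation test, unadjusted p = 0.508). On chow it averaged 1.37 and 1.55 (unadjusted p = 0.00794 by the same test). The 2 controls thus differed for the genotypes on the VLF diet. The part of RNA integrity in the results below was not tested.

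On the VLF diet, 5 of the 9 genes were higher in knockout than in wild-type liver: Cdkn1a 14.8-fold, Tnfrsf12a 10.4-fold, Btg2 5.74-fold, Trp53inp1 4.68-fold and Mdm2 2.29-fold. Fas and Bbc3 were lower, each by 1.40-fold, and Ccng1 and Tnfrsf10b did not pass the test (limma, Benjamini-Hochberg adjusted p under 0.05 over 45037 probe sets). This is 7 of 9 called where 42.1% of all genes were called, with 5 of 9 called up where 19.2% of all genes were, and 2 of 9 called down where 23.0% were. That split of all genes moved with the scaling, from 3491 up and 4177 down to 4157 and 3109 with median scaling and 5092 and 957 when arrays were centred on the spiked-in hybridization controls. The median change of the 9 was 1.20 on the log2 scale, against -0.02 over all genes. The groups did not overlap for 6 of the 9, against 30.1% of all genes. Since the genes were chosen with earlier results of these data known, these shares describe them and do not test enrichment.

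**Figure D1:**
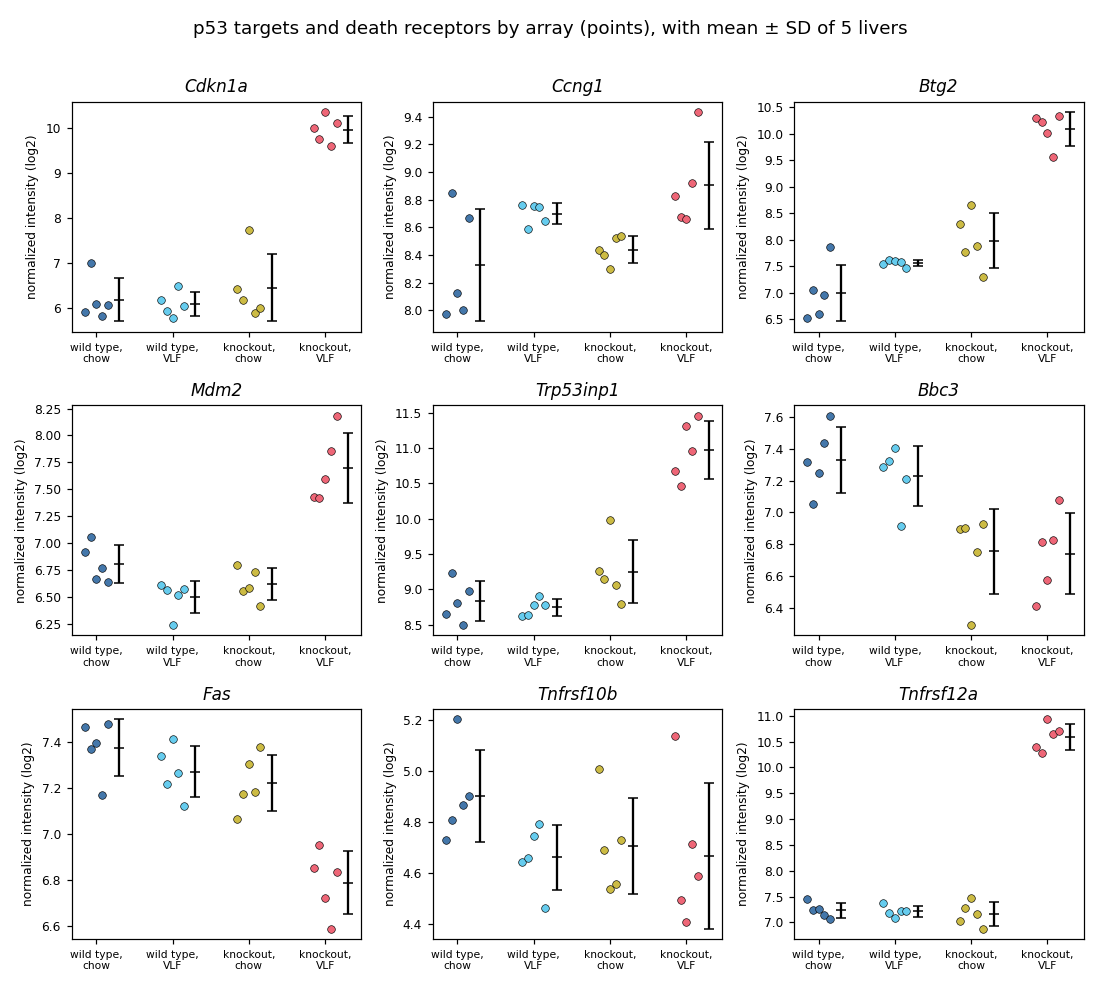
Normalized intensity (log2, y axis) of each of the 9 genes in every liver (points) of the 4 groups (x axis), with the mean ± SD of 5 livers beside them; each panel has its own scale. Cdkn1a, Btg2, Trp53inp1, Mdm2 and Tnfrsf12a are separated from the other 3 groups in all 5 knockout livers on the VLF diet, and Fas lies below them.

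Cdkn1a encodes p21, an inhibitor of cyclin-dependent kinases that halts the cell cycle. Its normalized intensity was 1031, 865, 1309.7, 776 and 1104 in knockout livers on the VLF diet (arrays 1 to 5). Knockout livers on chow read 85.9, 72.4, 211, 59.3 and 63.7. Wild-type livers read 71.8, 60.8, 54.7, 89.2 and 65.6 on the VLF diet and 60.3, 128, 68.0, 56.1 and 67.1 on chow. The knockout VLF group thus lay above every other array, and the other 3 groups overlapped one another. Array 3 of the knockout chow group and array 2 of the wild-type chow group were the highest outside the knockout VLF group.

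On the VLF diet the Cdkn1a difference between genotypes was 3.89 ± 0.29 on the log2 scale (SE, 5 livers a group; adjusted p = 6.18e-09). On chow it was 0.26 ± 0.29 (adjusted p = 0.753) and became -0.06 when knockout chow array 3 and wild-type VLF array 3 were left out. The diet raised Cdkn1a in knockout liver by 3.52 ± 0.29 (11.5-fold) and gave -0.10 ± 0.29 in wild type. A second Cdkn1a probe set, 1421679_a_at, also rose on the VLF diet, by 1.46 ± 0.13, so the direction was shared and the size was not.

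Btg2, an antiproliferative partner of the CCR4-NOT deadenylase that is also an immediate early gene, was the one arrest gene also called between genotypes on chow. Its intensity in wild-type livers on chow was 92.2, 132, 96.6, 124 and 233, and on the VLF diet 186, 197, 194, 193 and 176. Knockout livers read 316, 219.7, 404, 236 and 158 on chow and 1255, 1195, 1028, 750.3 and 1294 on the VLF diet. The knockout VLF livers lay above all others, while on chow the genotypes overlapped, since 2 knockout arrays (219.7 and 158) lay below 1 wild-type array (233).

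Knockout exceeded wild type by 2.52 ± 0.24 on the VLF diet (log2, adjusted p = 1.66e-07) and by 0.99 ± 0.24 on chow (1.98-fold, adjusted p = 0.0428). The chow call was lost without any of wild-type chow arrays 1 to 4 or knockout chow arrays 1, 3 and 4 (adjusted p from 0.0614 to 0.125). The second probe set, 1448272_at, gave 1.61 ± 0.20 on the VLF diet and 0.50 ± 0.20 on chow, the latter not called (adjusted p = 0.141). In wild-type liver the VLF diet gave 0.57 ± 0.24 (adjusted p = 0.352), and in knockout liver Btg2 rose by 2.10 ± 0.24.

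Ccng1, which encodes cyclin G1, a p53 target that recruits a phosphatase to Mdm2, differed less between groups. Its intensity was 453, 409, 405, 485 and 692 in knockout livers on the VLF diet and 433, 386, 431, 430.0 and 401 in wild-type livers on it. On chow, knockout livers read 346, 339, 315, 367 and 372, and wild-type livers 252, 462, 279, 257 and 408. The VLF groups overlapped each other. Array 5 was high among the knockout VLF livers, and arrays 2 and 5 were high among the wild-type chow livers.

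The genotype difference of Ccng1 on the VLF diet was 0.20 ± 0.16 (95% confidence interval -0.13 to 0.54; adjusted p = 0.401). The diet raised Ccng1 in knockout liver by 0.46 ± 0.16 (adjusted p = 0.0372), a call that was lost without any of 4 knockout chow arrays (1 to 4) or of 2 knockout VLF arrays (4 and 5), with adjusted p up to 0.116. Its 2 other probe sets read differently: 1450016_at and 1450017_at rose in knockout liver on the VLF diet by 0.60 ± 0.10 and 0.48 ± 0.11, and 1450016_at also rose with the diet in wild type, by 0.48 ± 0.10 (adjusted p = 0.0239). The Ccng1 calls therefore depend on which probe set is read. They also depend on the scaling: the genotype difference on the VLF diet was called with hybridization control centring. The diet call in knockout liver was lost with median scaling (limma adjusted p = 0.0543).

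Mdm2, the ubiquitin ligase that restrains p53, had intensities of 172, 172, 194, 231 and 291 in knockout livers on the VLF diet. It read 111, 93.9, 95.8, 106 and 85.5 in knockout livers on chow. Wild-type livers read 97.6, 94.5, 75.4, 91.8 and 95.0 on the VLF diet and 121, 133, 101, 109 and 99.4 on chow. All knockout VLF livers were above all others, and every wild-type VLF liver was below every wild-type chow liver.

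Mdm2 rose by 1.20 ± 0.13 with the knockout on the VLF diet (log2, adjusted p = 6.41e-07) and by 1.08 ± 0.13 with the diet in knockout liver. On chow the genotype difference was -0.19 ± 0.13 (adjusted p = 0.448), and in wild type the diet gave -0.31 ± 0.13 (adjusted p = 0.330). The probe set 1427718_a_at gave 1.15 ± 0.13 on the VLF diet and -0.00 ± 0.13 for the diet in wild type. The remaining probe set, 1457929_at, was at or next to the floor and did not move, so the Mdm2 calls rest on the 2 probe sets with the _a_at suffix, which marks probes shared by transcripts of 1 gene.

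Trp53inp1 encodes a stress-induced nuclear protein that promotes p53 phosphorylation and also acts in autophagy. Its intensity was 1638, 1412, 2530.3, 1991 and 2812 in knockout livers on the VLF diet and 613, 569, 1012, 533 and 443 on chow. In wild-type livers it was 394, 399, 441, 478 and 440.0 on the VLF diet and 402, 600.3, 447, 362 and 506 on chow. The knockout VLF livers were again above all others; knockout chow array 3 was the highest outside that group.

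Trp53inp1 rose by 2.23 ± 0.21 with the knockout on the VLF diet (log2, adjusted p = 8.75e-08) and by 1.72 ± 0.21 with the diet in knockout liver. The genotype difference on chow was 0.42 ± 0.21 (adjusted p = 0.252), with a 95% confidence interval of -0.02 to 0.85, and the diet gave -0.09 ± 0.21 in wild type. Its second probe set, 1416927_at, gave 1.52 ± 0.20 on the VLF diet.

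Bbc3 (Puma), a BH3-only protein that neutralizes antiapoptotic BCL2 proteins, was lower in knockout liver on both diets. Its intensity was 85.2, 113, 95.4, 113 and 135 in knockout livers on the VLF diet and 119, 119.7, 78.4, 108 and 122 on chow. Wild-type livers read 156, 160.2, 169, 121 and 148 on the VLF diet and 159, 133, 152, 173 and 195 on chow. The genotypes overlapped on the VLF diet, through wild-type array 4 and knockout array 5, and did not overlap on chow.

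The genotype change of Bbc3 was -0.49 ± 0.14 on the VLF diet (log2, adjusted p = 0.0113) and -0.58 ± 0.14 on chow (adjusted p = 0.0416). Neither diet comparison was called (-0.10 ± 0.14 in wild type and -0.01 ± 0.14 in knockout). Centring the arrays on the spiked-in hybridization controls ended the VLF call (-0.14 ± 0.15, adjusted p = 0.709). The chow call was lost without any of wild-type chow arrays 1, 3, 4 and 5 or knockout chow arrays 1, 3 and 4 (adjusted p from 0.0548 to 0.116; -0.46 without knockout chow array 3).

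Fas, the receptor for Fas ligand and the best-known death receptor of hepatocytes, had intensities of 115, 124, 105, 96.2 and 114 in knockout livers on the VLF diet. It read 134, 145, 158, 146 and 166 in knockout livers on chow, 162, 149, 171, 154 and 139 in wild-type livers on the VLF diet and 177, 165, 169, 144 and 179 in wild-type livers on chow. The knockout VLF livers were all below every other array, and the other 3 groups overlapped.

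The genotype change of Fas on the VLF diet was -0.48 ± 0.08 (log2, adjusted p = 6.65e-05), and the diet change in knockout liver was -0.43 ± 0.08 (adjusted p = 0.000236). On chow the genotype change was -0.15 ± 0.08 (adjusted p = 0.263). Both calls ended when arrays were centred on the hybridization controls, with -0.13 ± 0.13 (adjusted p = 0.605) and -0.05 ± 0.13 (adjusted p = 0.878). In that setting the median of all genes shifted to 0.10 for the first comparison and 0.27 for the second.

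Tnfrsf10b, the mouse TRAIL receptor, read close to the floor of 16 in every group: 21.2 to 35.2 in knockout and 22.1 to 27.8 in wild type on the VLF diet, and 23.2 to 32.2 and 26.6 to 36.9 on chow. Its genotype difference on the VLF diet was 0.01 ± 0.12 (log2; 95% confidence interval -0.25 to 0.27), and no comparison was called for either of its probe sets.

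Tnfrsf12a, the TWEAK receptor, had intensities of 1353, 1239.9, 1954, 1593 and 1662 in knockout livers on the VLF diet. It read 129.7, 156, 179, 143 and 118 in knockout livers on chow, 165, 146, 135, 149.6 and 150.0 in wild-type livers on the VLF diet and 176, 152, 153, 141 and 134 in wild-type livers on chow. The 3 lower groups shared 1 narrow range, and the knockout VLF group lay above it without overlap.

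Tnfrsf12a rose by 3.37 ± 0.12 with the knockout on the VLF diet (log2, adjusted p = 4.11e-13) and by 3.42 ± 0.12 with the diet in knockout liver (10.7-fold). Its genotype difference on chow was -0.07 ± 0.12 (95% confidence interval -0.32 to 0.18) and the diet gave -0.02 ± 0.12 in wild type (-0.27 to 0.23). The probe set 1418572_x_at, whose suffix marks probes that can bind other transcripts, gave 3.98 ± 0.12 on the VLF diet.

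**Figure D2:**
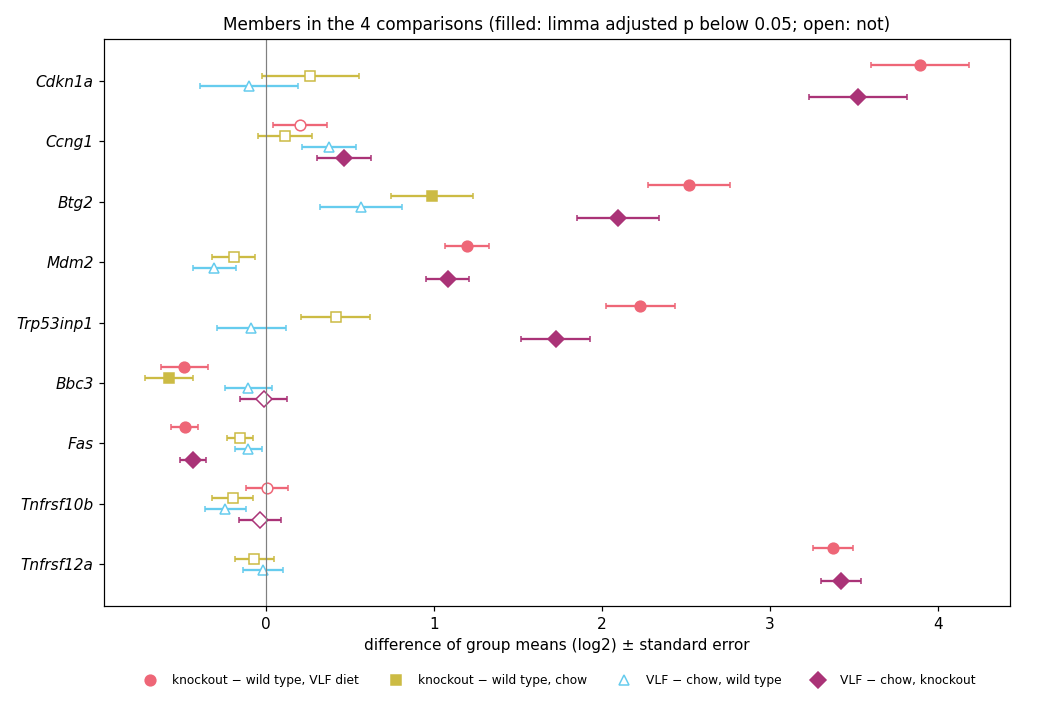
Difference of group means (log2, x axis) ± standard error for the 9 genes (y axis) in the 4 comparisons; filled symbols passed an adjusted p of 0.05. Both comparisons that involve the knockout VLF livers lie far to the right for Cdkn1a (3.89 and 3.52) and Tnfrsf12a (3.37 and 3.42), whereas the chow and wild-type comparisons stay within about 1 of 0.

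On chow, the genotype moved 2 of the 9 genes, Btg2 up and Bbc3 down, where 2.94% of all genes were called (1.23% up and 1.70% down). Groups did not overlap for 1 of the 9, Bbc3, against 6.13% of all genes. The diet alone moved none of the 9 in wild-type liver, where 1.57% of all genes were called; at an unadjusted p under 0.05 the count was 3 of 9, against 14.8% of all genes. The groups did not overlap for 1 of the 9, Mdm2, against 4.27% of all genes. In knockout liver the diet raised 6 of the 9 and lowered Fas, where 34.7% of all genes were called (17.1% up and 17.7% down), and 7 of 9 did not overlap between groups, against 25.3% of all genes. These comparisons share groups of livers, so their calls are not separate evidence of one another.

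The interaction of genotype and diet, the genotype difference on the VLF diet minus that on chow, tested whether the response depended on both. It was called for 6 of the 9 genes, 5 positive and 1 negative, where 24.2% of all genes were called (12.1% in each direction). The sizes were 3.63 ± 0.41 for Cdkn1a, 3.44 ± 0.17 for Tnfrsf12a, 1.81 ± 0.29 for Trp53inp1, 1.53 ± 0.34 for Btg2 and 1.39 ± 0.18 for Mdm2 (log2 ± SE, adjusted p from 1.38e-10 to 0.00323). For Fas it was -0.33 ± 0.11 (adjusted p = 0.0433), a call lost in 17 of 30 other settings (adjusted p up to 1). Among these, it was lost without any of wild-type chow arrays 2 to 4, wild-type VLF arrays 1, 3 and 4, knockout chow arrays 2 to 5 or knockout VLF arrays 3 to 5. For Bbc3 it was 0.09 ± 0.20 and not called.

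**Figure D3:**
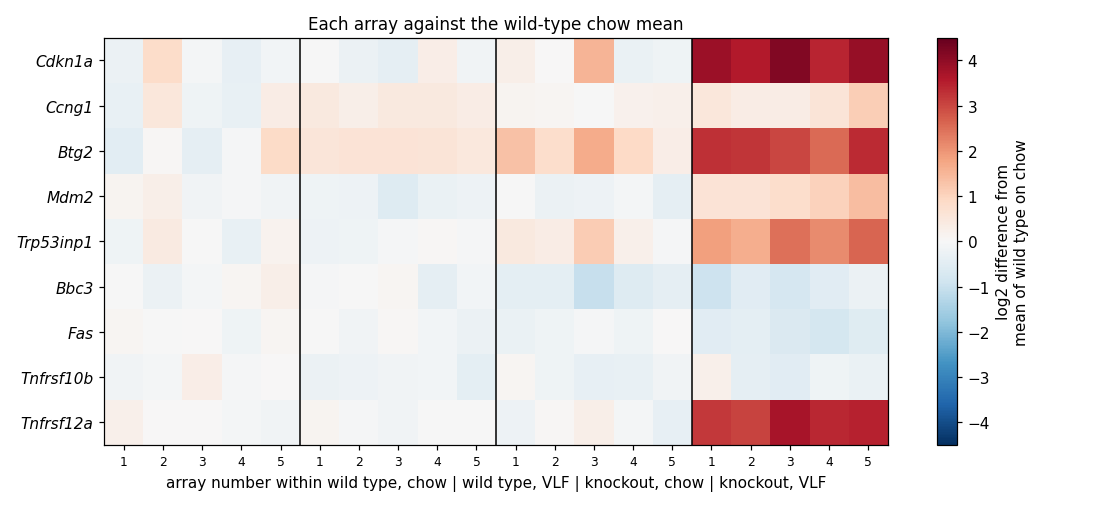
Log2 difference of each of the 20 arrays (columns, 5 per group) from the mean of the wild-type chow group for the 9 genes (rows); red is higher and blue is lower. The 5 knockout VLF arrays are red for Cdkn1a, Btg2, Mdm2, Trp53inp1 and Tnfrsf12a, and knockout chow array 3 is the reddest array outside that group for Cdkn1a, Btg2 and Trp53inp1.

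Among the knockout livers on chow, arrays 3 and 5 were most often at the ends of the range. Array 3 was the highest of its group for 4 of the 9 genes (Cdkn1a, Btg2, Trp53inp1, Tnfrsf12a) and the lowest for 3 (Ccng1, Bbc3, Tnfrsf10b). Array 5 was the highest for 3 (Ccng1, Bbc3, Fas) and the lowest for 4 (Btg2, Mdm2, Trp53inp1, Tnfrsf12a). Btg2 differed from the mean of the other 4 arrays by 0.84 on array 3 and by -0.86 on array 5 (log2), while Cdkn1a on array 3 was 3.03-fold the geometric mean of the other 4. The summed intensity of 10 macrophage markers was 10572 on array 3 and 7274 to 8921 on the other 4, and that of 7 neutrophil markers was 1243 against 411 to 538. Whether these move the members was not tested.

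Of 13 regulators of p53, 2 rose and 2 fell in knockout liver on the VLF diet, against 19.2% and 23.0% of all genes. The median of the list was -0.02 (log2), as over all genes. With hybridization control centring 6 rose and none fell, Mdm4 and Trp73 then changing sign without a call. Chek1, the checkpoint kinase of stalled replication, rose by 0.96 ± 0.11, and Atr, the kinase that activates it, by 0.65 ± 0.12. Mdm4, the Mdm2 relative that blocks p53, changed by -0.31 ± 0.09, and the p53 relative Trp73 by -0.28 ± 0.09, before that centring.

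Among 31 other p53 target genes, 15 rose and 6 fell, against 19.2% and 23.0% of all genes. The median of the list was 0.20, against -0.02 over all genes. Hybridization control centring gave 19 and 1, with Xpc and Triap1 changing sign. Zmat3, an RNA-binding protein, rose by 1.13 ± 0.15, the kinase Plk2 by 0.81 ± 0.10 and Phlda3, an inhibitor of Akt, by 0.79 ± 0.10. Eda2r, a TNF receptor family member and p53 target, was at the floor in all 5 wild-type VLF livers and averaged 21.0 ± 2.2 (SD, n = 5) in knockout ones, so its change of 0.38 ± 0.05 is measured against the floor. All 4 are genes with the smallest adjusted p in the list.

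Relatives of the arrest genes were mixed, with 4 of 10 up and 2 down, against 19.2% and 23.0% of all genes. With hybridization control centring 4 were up and none down. Ccng2, the cyclin G relative, rose by 0.76 ± 0.16, Btg1 by 0.44 ± 0.13 and Cdkn1c, the p57 inhibitor, by 0.22 ± 0.06. Trp53inp2, a relative of Trp53inp1 that acts in autophagy, changed by -0.77 ± 0.12, whereas Trp53inp1 rose; with that centring its change was -0.40 (adjusted p = 0.0516).

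Cyclins, cyclin-dependent kinases and proliferation markers rose in 6 of 12 cases and fell in 1, against 19.2% and 23.0% of all genes. The median of the list was 0.45, and hybridization control centring gave 9 up and 1 down. Cdk1, the mitotic kinase, rose by 1.68 ± 0.17, the topoisomerase Top2a by 1.89 ± 0.25, Cdk6 by 1.01 ± 0.12 and Pcna, the replication clamp, by 0.62 ± 0.06. The gene that fell was Ccnd2 (-0.83 ± 0.13), which is named after its value was seen. Transcripts of a cell-cycle inhibitor and of mitotic genes were thus both higher in the same livers.

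Of 14 genes of the BCL2 family, 4 rose and 2 fell, against 19.2% and 23.0% of all genes. With hybridization control centring 6 rose and 1 fell. The antiapoptotic Bcl2l1 (Bcl-x) rose by 0.55 ± 0.09 and the pore-forming Bak1 by 0.63 ± 0.12. Bok rose by 0.42 ± 0.09, and Bmf, a BH3-only protein like Bbc3, changed by -1.45 ± 0.25. The median of the family was 0.03.

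Caspases, apoptosome components and inhibitors of apoptosis rose in 4 of 13 cases and fell in 4, against 19.2% and 23.0% of all genes. The median of the list was 0.02. With hybridization control centring 6 rose and none fell, and Aifm1 changed sign. Apaf1, the apoptosome scaffold, rose by 0.90 ± 0.13. The effector caspase Casp6 changed by -0.63 ± 0.09, the caspase inhibitor Xiap by -0.40 ± 0.07 and the mitochondrial flavoprotein Aifm1 by -0.36 ± 0.07; none of these 3 was called with that centring.

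Ligands of the death receptors gave no rise: of 7 read, 2 fell (none with hybridization control centring), where 23.0% of all genes fell. Only 6 of the 7 were above the floor on any array, and Tnfsf11, which was not, could not be called. Tnfsf10 (TRAIL), the ligand of Tnfrsf10b, averaged 33.3 ± 2.2 in knockout and 43.5 ± 6.9 in wild type on the VLF diet (SD, n = 5), a change of -0.37 ± 0.09. Lta changed by -0.29 ± 0.11. Tnfsf12, the ligand of Tnfrsf12a, was not analysed here.

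Of 15 other TNF receptor family members, 3 rose and 2 fell, against 19.2% and 23.0% of all genes. With hybridization control centring 6 rose and 1 fell. Both TNF receptors rose, Tnfrsf1a by 0.42 ± 0.07 and Tnfrsf1b by 0.67 ± 0.14, while Tnfrsf19 changed by -0.85 ± 0.14. Eda2r also belongs to this list. The median of the list was 0.05, against 3.37 for Tnfrsf12a.

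Adaptors of death receptors and of the NF-kB arm rose in 5 of 14 cases and fell in 1, against 19.2% and 23.0% of all genes. With hybridization control centring 7 rose and none fell. The necroptosis pair Ripk3 and Mlkl rose, by 0.73 ± 0.12 and 1.21 ± 0.16, as did the NF-kB subunit Relb, by 0.81 ± 0.14. Cflar (c-FLIP), the inhibitor of caspase-8 activation at death receptors, changed by -0.57 ± 0.10, and by -0.19 (adjusted p = 0.460) with that centring.

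**Figure D4:**
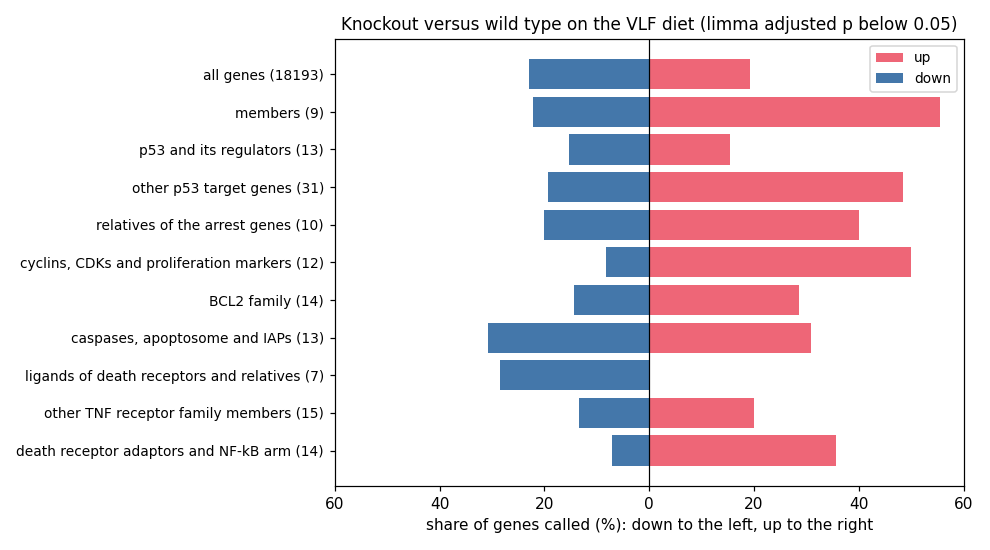
Share of genes called up (to the right, %) and down (to the left, %) in knockout against wild-type liver on the VLF diet, for all 18193 genes, the 9 genes described here and 9 lists of related genes, with the number read in brackets. Over all genes 19.2% were called up and 23.0% down, and the 9 genes have the longest bar to the right. The 9 genes and the lists were chosen with earlier results of these data known.

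With the diet in knockout liver, 14 of the 31 other p53 targets rose and 5 fell (22 and 1 with hybridization control centring), where 17.1% of all genes rose and 17.7% fell. Of the 12 cyclins, kinases and proliferation markers, 6 rose and 1 fell (8 and none with that centring). On chow the genotype difference was called for Atr (0.48 ± 0.12), Ddb2 (0.36 ± 0.09) and Tradd (0.29 ± 0.07), by limma adjusted p from 0.0416 to 0.0448. These are 3 of 126 list genes, where 2.94% of all genes were called. The diet in wild-type liver moved no gene of any list, where 1.57% of all genes were called. At an unadjusted limma p under 0.05 the count for that diet comparison was 16 of 126, against 14.8% of all genes. All 3 calls were lost with hybridization control centring, with changes of 0.35, 0.19 and 0.31 (adjusted p = 0.288, 0.482 and 0.186), and no list held a call on chow with both arrays that stand apart left out.

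Genes whose pattern was most like that of Cdkn1a, Tnfrsf12a or Fas were sought among 14388 genes above the floor on every array, by the root mean square difference of log2 values over 20 arrays after centring each gene. For Cdkn1a the 3 nearest were Nucb2 (0.34), Slc25a24 (0.39) and Tnfrsf12a (0.44). For Tnfrsf12a they were Cdc42ep5 (0.26), Atf3 (0.27), a stress-induced transcription factor, and Tubb6 (0.27), a beta tubulin. For Fas they were Gad1os (0.10), Mrpl36 (0.11) and Akt2 (0.11). Atf3 averaged 294 ± 77.3 in knockout livers on the VLF diet and 21.8 to 23.1 in the other groups.

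Markers of other cell types were read in the same groups. For the genotypes on the VLF diet, 19.2% of all genes were called up and 23.0% down. In knockout against wild-type liver on the VLF diet, 9 of 10 macrophage markers rose, and their summed intensity was 17880 to 26021 against 6092 to 7244. Of 10 stellate cell and fibroblast markers, 8 rose and Lrat changed by -0.51 (sum 5466 to 7229 against 2669 to 3397), and 3 of 7 neutrophil markers rose (922 to 5088 against 355 to 418). Hepatocyte markers gave 0 up and 2 down of 7 (93478 to 98097 against 98571 to 103799), endothelial markers 1 up and 5 down of 8 (2153 to 3080 against 2393 to 2877), and cholangiocyte markers 2 up of 6 (364 to 462 against 289 to 340), with Cftr at the floor on all arrays. Lymphocyte markers gave 0 up and 2 down of 9 (407 to 498 against 461 to 568). The lymphocyte and endothelial sums overlapped between the genotypes. With hybridization control centring 9 macrophage, 8 stellate, 3 neutrophil and 2 cholangiocyte markers were called up. In that setting 2 hepatocyte markers rose and 1 fell, 1 endothelial marker rose and none fell, and no lymphocyte marker was called. The counts of hepatocyte and endothelial calls in each direction thus moved with the scaling, though no hepatocyte marker called before that centring changed sign. The part of these markers in the members' changes was not tested.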

How the data were processed

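Total RNA of 20 mouse livers had been hybridized to 1 Affymetrix Mouse 430 2.0 array each. The deposited values are linear intensities per probe set, summarized by the authors; the submitters' processing notes name MAS5 and RMA without version or role. No scan or hybridization date is given in the sources used here. The 64 array controls were left out. Each array was brought to the same median, values under 16 were set to 16, and log2 values were quantile-normalized. limma 3.58.1 (R 4.3.3) fitted 4 group means over 45037 probe sets, with Benjamini-Hochberg adjustment and a threshold of 0.05. The 9114 probe sets at the floor on every array were kept from the variance model and could not be called. The probe set with the highest mean log2 stood for each gene, among 34945 probe sets named for 1 gene (932 named several, 9160 none), with symbols updated to RefSeq. The members and lists were chosen with earlier results of these data known. Up to 4 genes per list are named, those with the smallest adjusted p for the knockout on the VLF diet. The script was tested on simulated data. Alternatives were other scalings, floors, filters, fits and probe set choices, and leaving out arrays. Each limma p-value sets a difference of group means against the spread between livers, shared over the 4 groups. With 5 livers a group the precision is limited. Figures were drawn with matplotlib 3.10.9.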

Additional observations from a re-analysis of the deposited data

Results flagged for a closer look

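Dixon's test was applied to the log2 values of 36 sets of 5 livers (9 genes in 4 groups), and about 1 in 20 would pass by chance. In 3 sets 1 liver lay far from the others on that scale; their values are given here as normalized intensities. Cdkn1a read 128 on array 2 of the wild-type chow group, where the other 4 lay at 56.1 to 68.0. Mdm2 read 75.4 on array 3 of the wild-type VLF group, the array with Xist at the floor, where the other 4 lay at 91.8 to 97.6. Bbc3 read 78.4 on array 3 of the knockout chow group, where the other 4 lay at 108 to 122. Cdkn1a on array 3 of the knockout chow group, at 211 with the other 4 at 59.3 to 85.9, did not pass (its gap was 0.708 of the range, just under the critical value). On linear intensities 5 sets passed: Cdkn1a in both chow groups, Mdm2 in the wild-type VLF group, Ccng1 in the knockout VLF group and Btg2 in the wild-type chow group, but not Bbc3.

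The interaction of genotype and diet was called in limma for 6 genes. For Fas the call was lost in 17 of 30 other settings, and its interaction was -0.001 (log2) with hybridization control centring. On the log2 scale the interaction was 3.63 for Cdkn1a, 3.44 for Tnfrsf12a, 1.81 for Trp53inp1, 1.53 for Btg2, 1.39 for Mdm2 and -0.33 for Fas. In each case all 5 knockout livers on the VLF diet lay outside the range of knockout livers on chow, as for 25.3% of all genes. That comparison is part of the interaction, so the separation is not separate evidence.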

How the results depend on the processing

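The rises of Cdkn1a, Btg2, Trp53inp1 and Tnfrsf12a in knockout liver on the VLF diet kept their direction and call in all 21 alternatives; that of Mdm2 did so in all but the setting without _s_at, _x_at and _a_at probe sets, which reads a probe set near the floor (change 0). Members called stayed at 6 to 8 for that comparison, 6 to 7 for the diet in knockout liver and 5 to 6 for the interaction. Which members were called changed, however: with hybridization control centring all down calls in these comparisons, of Fas and Bbc3, were lost. Up calls there numbered 6, 6 and 5, against 5, 6 and 5 before. The 2 members called on chow became 1 with median scaling or the mean of a gene's probe sets and 0 with hybridization control centring, the compared groups only or both arrays that stand apart left out (chosen after seeing the data), and were 0 to 2 when 1 array was left out. In wild-type liver the diet called 1 member instead of 0, Ccng1, with the mean of a gene's probe sets or without _s_at, _x_at and _a_at probe sets. Ccng1 was also called for the knockout on the VLF diet in these 2 settings and with hybridization control centring (0.43 to 0.60).

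Genes called on chow (534) became 1492 with median scaling, 3 with hybridization control centring, 1125 with probe sets of mean log2 6 or more, 10 with the compared groups only and 26 without both arrays that stand apart, and 25 to 1034 when 1 array was left out (35 without knockout chow array 3). Genes called for the diet in wild type (285) became 175, 50, 480 and 169 in the first 4 of these, and 126 to 285 when 1 array was left out. Genes up and down moved with scaling: for the diet in knockout liver 3108 and 3213 against 6798 and 871 with that centring; for the interaction 2206 and 2197 against 3965 and 618. On chow the split was 224 and 310, against 1258 and 234 with median scaling, and for the diet in wild type 143 and 142, against 118 and 57. The cause was not tested.

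Replicate numbers did not pair the livers: deviations of same-numbered livers from their group means correlated at -0.26 to 0.27, above 0.1 in 6 of 30 pairs. With the number as a replicate block, 0 members and 260 genes were called on chow. Intensities near the floor of 16, as for Tnfrsf10b, limit what could be seen.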
